A study of Mus musculus with 32 samples.

Results

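Immediate early genes are transcribed within minutes of neuronal activity, without new protein synthesis, and their transcripts are short-lived. The 10 genes described here were Fos, Fosb, Junb, Arc, Egr1, Egr2, Egr4, Npas4, Dusp1 and Ier2. They were chosen by name, with earlier results of these data known. All 10 were among the 23420 genes in the count files and among the 15589 genes with enough reads to be tested. RNA-seq was run on striatal tissue from 8 B6.D2 congenic mice of the subcongenic Line 4a (strain label C57BL/6J-DBA/2J), which carried a heterozygous D2 (DBA/2J) segment of chromosome 11 on a B6 background, and from 8 B6 (C57BL/6J) mice. The study describes the B6 mice as littermates and all mice as naïve, so that no group had received a drug. Mice were about 50 days old, and punches from both hemispheres were pooled for each mouse. A comparison of this kind concerns the whole D2 segment and not a single gene in it.

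In striatum, calcium entry and dopamine D1 receptor signalling reach these genes through the ERK kinases, CREB, SRF with its ELK partners, and MEF2. The members act in different ways. Fos, FosB and JunB form AP-1 dimers, Egr1, Egr2 and Egr4 are zinc-finger transcription factors, and Npas4 is a bHLH-PAS factor induced by calcium in neurons. Arc acts at synapses, where it promotes AMPA receptor endocytosis. Dusp1 is a nuclear phosphatase that switches off MAP kinases, and Ier2 is a small nuclear protein. Such transcripts report the state of the tissue at the moment of its collection, and the labels give no time of day, order or delay of collection.

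The sequence upstream of the members was examined because genes that vary together can share promoter elements. RefSeq promoters (GRCm38.p6) were held for 7 of the 10 members, and the 250 bases before the annotated start were searched on both strands. The entries for Arc, Egr1 and Ier2 were not used here. TGACG, the core of the cAMP response element to which CREB binds, was present in all 7 members (Fos, Fosb, Junb, Egr2, Egr4, Npas4 and Dusp1), against 19.8% of the 27025 genes with a promoter. The full palindrome TGACGTCA, which contains TGACG, was found in Dusp1 only among the 7, against 1.77% of all genes. A CArG box, the element bound by SRF, was found in Egr2 only, against 1.62% of all genes. The EGR element GCGNGGGCG was found in Fosb only (5.33% of all genes), TATAAA in Fos only (14.3%), and the AP-1 element TGANTCA in none of the 7 (7.82%). These are matches of letters in a window and not measured binding, and the members' windows were richer in G and C than most. Guanine plus cytosine made up 58.4% of the Fos window, 68.8% of the Npas4 and Fosb windows and 68.4% of the Dusp1 window, against a median of 52.4% over all promoters. The windows of 4 members are shown. Fos and Npas4 each hold 2 copies of TGACG, as does Egr4, whose window is not shown. Dusp1 holds the palindrome and Egr2 holds both TGACG and a CArG box. Capitals mark every motif listed above.
Fos, chr12:85473640-85473889, plus strand: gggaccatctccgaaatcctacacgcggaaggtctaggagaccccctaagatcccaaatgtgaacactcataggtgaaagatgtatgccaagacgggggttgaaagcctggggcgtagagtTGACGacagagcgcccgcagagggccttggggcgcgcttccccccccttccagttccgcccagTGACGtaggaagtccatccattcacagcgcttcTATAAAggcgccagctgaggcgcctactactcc
Npas4, chr19:4989972-4990221, minus strand: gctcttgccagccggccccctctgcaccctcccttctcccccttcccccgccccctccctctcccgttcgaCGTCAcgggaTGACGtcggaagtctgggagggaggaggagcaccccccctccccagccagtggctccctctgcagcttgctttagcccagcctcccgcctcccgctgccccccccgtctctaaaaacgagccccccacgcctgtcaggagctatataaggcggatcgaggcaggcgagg
Dusp1, chr17:26508473-26508722, minus strand: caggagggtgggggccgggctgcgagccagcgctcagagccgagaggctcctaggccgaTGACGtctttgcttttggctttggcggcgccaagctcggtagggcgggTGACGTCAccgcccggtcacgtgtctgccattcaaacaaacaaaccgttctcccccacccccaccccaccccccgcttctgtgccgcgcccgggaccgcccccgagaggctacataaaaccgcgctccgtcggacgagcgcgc
Egr2, chr10:67537619-67537868, plus strand: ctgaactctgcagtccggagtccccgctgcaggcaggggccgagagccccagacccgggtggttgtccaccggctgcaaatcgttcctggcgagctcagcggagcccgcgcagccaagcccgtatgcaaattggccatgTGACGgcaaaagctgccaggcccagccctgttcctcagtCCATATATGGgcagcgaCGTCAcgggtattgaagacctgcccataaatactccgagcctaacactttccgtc

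In Fos the TGACG copies began 129 and 66 bases before the start, and TATAAA began 33 bases before it. In Npas4 the copies lay within 15 bases of each other, from 179 to 165 bases before the start and on opposite strands. The Npas4 start used here lies inside the span of the gene given below, not at its 5' end. The palindrome of Dusp1 spanned 143 to 136 bases before the start. The Egr2 window belongs to the third of 5 annotated starts, and its CArG box spanned 72 to 63 bases before that start. The members were spread over the genome, and none lay on chromosome 11. In GRCm38.p6, Fos spans 85473890 to 85477274 of chromosome 12, Npas4 4984353 to 5003439 of chromosome 19, Dusp1 26505591 to 26508472 of chromosome 17 and Egr2 67534469 to 67542188 of chromosome 10. Junb (84976909 to 84978748) and Ier2 (84661331 to 84662852) both lie on chromosome 8. Arc lies at 74669081 to 74672570 of chromosome 15, Fosb at 19302696 to 19310118 of chromosome 7 and Egr4 at 85511121 to 85513589 of chromosome 6.

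Each mouse had 19032826 to 33748353 reads assigned to genes, with medians of 30222554 in B6 and 29352254 in Line 4a. All mice but B6 mouse 7 had 2 lane files, which were summed. Mice 1 to 4 of each genotype were sequenced on lanes 5 and 6, and mice 5 to 8 on lanes 7 and 8. A pair of libraries stood apart: 11.3% of the reads of B6 mouse 8 and 10.2% of those of Line 4a mouse 1 fell outside annotated exons, against 14.5% to 15.9% in the others. Otherwise they differed from each other. Reads not uniquely aligned made up 27.3% in Line 4a mouse 1 and 19.5% in B6 mouse 8, and reads on genes 61.4% and 68.3%. The genotype comparison of the 10 genes, its lane sets and their covariation are also given without this pair, a choice made after seeing the data. The striatal label was borne out by the projection neuron markers, all 10 of which were detected, with a summed level of 5721 to 8439 CPM (reads per 1000000 reads on genes, scaled by TMM) in B6 and 6225 to 7349 CPM in Line 4a. Markers of cortical glutamatergic neurons were also present. All 9 had a lower mean in Line 4a, 7 of them at an unadjusted p under 0.05, and their summed level ran from 503.5 to 800.7 CPM in B6 and from 351.8 to 697.5 CPM in Line 4a. In tissue of this kind, fewer cells of a type and less RNA per cell cannot be told apart.

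Levels were compared between genes per kilobase of exon (GENCODE vM1, build NCBIM37). Egr1 was the most abundant member, at a mean of 53.9 CPM per kb over the 16 mice, and Arc was next at 29.1 and Junb at 14.96. Each of these was above the next gene in the order in all 16 mice. Dusp1 (7.80), Egr4 (7.06) and Npas4 (6.81) followed and were not ordered beyond their spread. Dusp1 was above Egr4 in 12 of 16 mice, and Egr4 was above Npas4 in 8. Npas4 exceeded Fos in all 16 mice. Fos (2.91), Ier2 (2.19), Fosb (1.92) and Egr2 (1.64) were the least abundant, and each exceeded the next in 9 to 13 of 16 mice. The naïve striatum therefore held much more Egr1 and Arc transcript per kilobase than Fos transcript. Counting did not use strand. Egr1 shares 8 bases of exon, 0.258% of its length, with an antisense gene (Gm17507), and the other 9 members overlap no other exon.

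**Figure D1:**
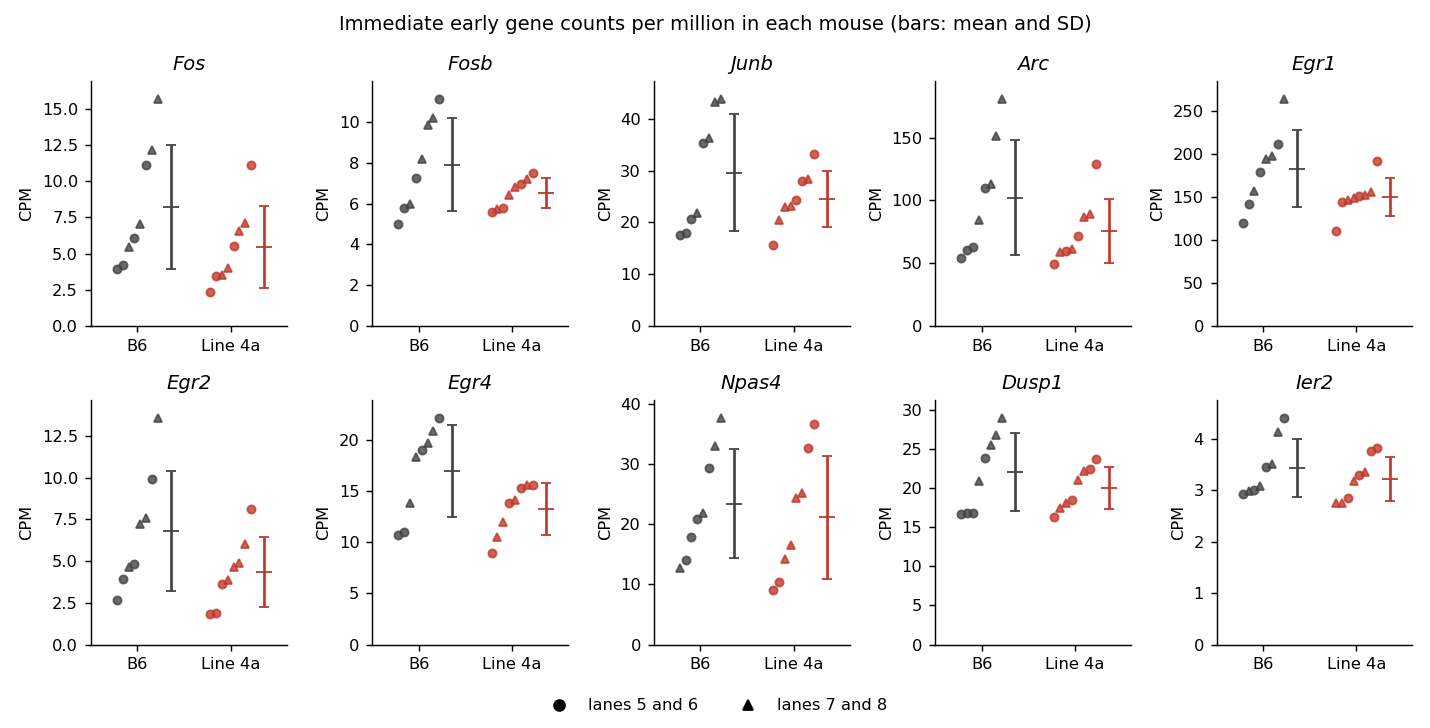
CPM (vertical axis) of the 10 genes in each mouse, with B6 in grey and Line 4a in red, ordered by level within each group. Circles are mice of lanes 5 and 6, triangles mice of lanes 7 and 8, and bars give the mean ± SD of 8 mice. The groups overlap in every panel, and the highest B6 values for Fos, Junb, Arc, Egr1, Egr2, Npas4 and Dusp1 are triangles.

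Among the AP-1 genes, Fos was measured at 3.94, 6.58 and 15.7 CPM in the lowest, median and highest B6 mouse and at 2.37, 4.76 and 11.1 CPM in Line 4a. B6 mice 5, 7 and 2 and Line 4a mouse 4 were high, and Line 4a mouse 3 was the lowest of all. The mean was 8.21 ± 4.25 CPM in B6 and 5.45 ± 2.82 CPM in Line 4a (SD, n = 8 each), a log2 fold change of -0.58 (SE 0.32) with an adjusted p of 0.560 by the edgeR quasi-likelihood test over all genes. Fosb ran from 4.98 through a median of 7.71 to 11.1 CPM in B6 and from 5.58 through 6.61 to 7.52 CPM in Line 4a. The Line 4a mice lay close together, inside the range of the B6 mice. Its log2 fold change was -0.28 (SE 0.15). Junb, a Jun-family partner of the Fos proteins, ran from 17.7 through 28.6 to 43.8 CPM in B6 and from 15.6 through 23.7 to 33.2 CPM in Line 4a. In B6 the values fell in a low set of 4 mice, between 17.7 and 21.7 CPM, and a high set of 4, between 35.4 and 43.8 CPM. The log2 fold change was -0.27 (SE 0.20).

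Egr1 ran from 119.6 through 187.2 to 264.2 CPM in B6 and from 110.1 through 150.1 to 192.4 CPM in Line 4a. It was the most evenly expressed of the EGR genes in Line 4a, where 6 of 8 mice lay between 144.8 and 156.5 CPM. The mean was 183.4 ± 44.98 CPM in B6 and 150.5 ± 22.3 CPM in Line 4a, with 7 of 8 Line 4a values under the median of B6. A log2 fold change of -0.28 (SE 0.13) was estimated, with an unadjusted p of 0.0444 and an adjusted p of 0.487 (edgeR). The two-sided p of the exact permutation test over the 16 mice was 0.0992. Egr4 ran from 10.7 through 18.7 to 22.2 CPM in B6 and from 8.95 through 13.98 to 15.6 CPM in Line 4a. The median of B6 exceeded all 8 Line 4a values, and 5 of 8 B6 mice were above every Line 4a mouse. The log2 fold change was -0.35 (SE 0.16), with an unadjusted p of 0.0376, an adjusted p of 0.476 (edgeR) and an exact permutation p of 0.0877. Egr2, which is scarce in striatum, ran from 2.67 through 6.02 to 13.6 CPM in B6 and from 1.81 through 4.28 to 8.12 CPM in Line 4a. It had the widest range of the 10 genes, with the highest mouse 7.53 times the lowest, and the largest difference between the genotypes, a log2 fold change of -0.62 (SE 0.32). Its lowest count was 45 reads.

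Arc ran from 54.5 through 97.3 to 180.7 CPM in B6 and from 49.6 through 66.5 to 128.7 CPM in Line 4a. B6 mice 7 and 5 and Line 4a mouse 4 were high, and 7 of 8 Line 4a values lay under the median of B6. Its log2 fold change was -0.43 (SE 0.24). Npas4 ran from 12.7 through 21.4 to 37.7 CPM in B6 and from 9.07 through 20.4 to 36.8 CPM in Line 4a, so that the ranges nearly coincided, and the median of B6 divided the Line 4a mice into 4 and 4. The log2 fold change was -0.14 (SE 0.29). Dusp1 ran from 16.8 through 22.4 to 29.0 CPM in B6 and from 16.4 through 19.8 to 23.7 CPM in Line 4a, a log2 fold change of -0.14 (SE 0.12). Ier2 ran from 2.93 through 3.27 to 4.41 CPM in B6 and from 2.75 through 3.24 to 3.83 CPM in Line 4a, with a log2 fold change of -0.10 (SE 0.11), the smallest of the set.

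All 10 genes thus had a lower mean in Line 4a, where 45.1% of all genes tested did, and their median log2 fold change was -0.28 beside 0.01 over all genes. Because the 10 genes varied together across mice, as described next, these 10 directions are not 10 separate observations. Of the 10, 2 (Egr1 and Egr4) reached an unadjusted p under 0.05, both lower in Line 4a. Over all genes 5.14% reached that threshold with a lower level in Line 4a. None of the 10 was called at FDR 5% or 20% by edgeR, nor at FDR 20% by DESeq2. Of all genes, edgeR called 0.00641% at FDR 5% and 0.0192% at FDR 20%, and DESeq2 called 1.67% at FDR 20%. The members' adjusted p-values ran from 0.476 to 0.881 (edgeR). The exact permutation test called none at p under 0.05, with 12870 possible splits of the mice and a smallest possible p of 0.000155. The calls of Egr1 and Egr4 lay near the threshold, and the count changed when single mice were left out. It was 0 without B6 mouse 2, 3, 5, 7 or 8 or Line 4a mouse 3, 6 or 7. It was 5 without B6 mouse 1 or 4 or Line 4a mouse 4. In these fits the log2 fold change ran from -0.35 to -0.19 for Egr1 and from -0.43 to -0.29 for Egr4. With the pair of libraries that stood apart left out, 0 of 10 reached an unadjusted p under 0.05. With a score of the 9 cortical markers as a covariate the count was also 0 (0.770% of all genes were lower in Line 4a at that threshold), and over all genes the number in either direction went from 1559 to 348. The score itself was mostly higher in B6, at -0.29 to 1.25, than in Line 4a, at -1.42 to 0.80. The fit with the score therefore cannot separate it from genotype, and the lost calls cannot be assigned to either. The fold changes moved unequally in that fit. Egr4 went from -0.35 to -0.17 (SE 0.21), while Egr1 was at -0.30 (SE 0.18), Arc at -0.59 (SE 0.33) and Egr2 at -0.89 (SE 0.44), each lower than without the covariate and with a larger SE.

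The genotype difference was also computed within each lane set. In the 4 and 4 mice of lanes 5 and 6, 6 of 10 genes had a lower mean in Line 4a, with a median log2 fold change of -0.06, and 0 of 10 reached an unadjusted p under 0.05 (1.56% of all genes did with a lower level in Line 4a). In the 4 and 4 mice of lanes 7 and 8, all 10 were lower, with a median of -0.46, and 8 of 10 reached an unadjusted p under 0.05, all lower in Line 4a (4.66% of all genes did). The 8 were Fos, Fosb, Junb, Arc, Egr1, Egr2, Egr4 and Dusp1, and their adjusted p-values were all at least 0.499 (edgeR). Egr1 was the only member whose groups did not overlap there, at 157.1 to 264.2 CPM in B6 and 146.9 to 156.5 CPM in Line 4a, where 2.39% of all genes had every Line 4a mouse below every B6 mouse. Its exact permutation p of 0.0286 is the smallest that 4 against 4 mice can give. That test called 1 of 10 genes at p under 0.05 in lanes 7 and 8. The others of the 8 had exact permutation p-values from 0.0857 to 0.143. Without the pair of libraries that stood apart, the log2 fold changes in lanes 5 and 6 ran from -0.24 for Egr4 to 0.35 for Npas4, with 0 of 10 at an unadjusted p under 0.05. Those in lanes 7 and 8 ran from -1.05 for Fos to -0.18 for Ier2, with 8 of 10 at that threshold (4.86% of all genes were lower at it). Fosb (-0.29, SE 0.15) was then no longer among the 8, and Npas4 (-0.61, SE 0.21) was.

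The levels of both genotypes in the lane sets are given for 3 genes. Mean Arc was 72.0 CPM in the B6 mice of lanes 5 and 6 and 132.5 CPM in those of lanes 7 and 8, and 77.3 and 74.3 CPM in the corresponding Line 4a mice. Mean Junb was 22.9 and 36.3 CPM in B6 and 25.2 and 23.8 CPM in Line 4a. Dusp1 was at 18.6 and 25.6 CPM in B6 and at 20.3 and 19.7 CPM in Line 4a. The interaction of genotype and lane set had an unadjusted p of 0.0399 for Arc and 0.0245 for Dusp1, and of 0.0542 for Junb, with an adjusted p of 0.950 for each (edgeR). The other 7 genes had interaction p-values from 0.255 to 0.656, so that no interaction passed adjustment. Without the pair of libraries, the unadjusted p was 0.0218 for Arc, 0.0517 for Dusp1 and 0.104 for Junb, with an adjusted p of 0.999 for all 10 genes (edgeR). A lane set here is a set of mice sequenced together, and whether these mice were also housed or killed together is not in the labels.

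**Figure D2:**
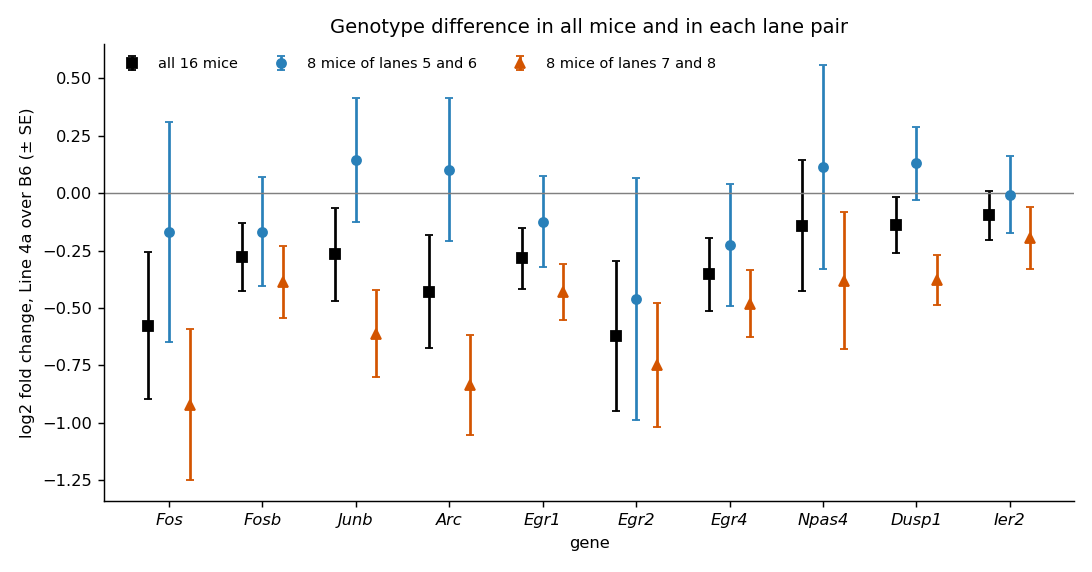
Log2 fold change of Line 4a over B6 (vertical axis, ± SE from the edgeR fit) for each gene, in all 16 mice (squares), in the 8 mice of lanes 5 and 6 (circles) and in the 8 mice of lanes 7 and 8 (triangles). All triangles lie below 0, while the circles of Junb, Arc, Npas4 and Dusp1 lie above it.

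The 10 genes varied together from mouse to mouse. After the genotype means were subtracted, Pearson r of log2 CPM over the 16 mice was above 0 for all 45 pairs, with a median of 0.730 and a range from 0.0773 to 0.925. Of the 45, 34 had a permutation p under 0.05 after adjustment over the 45 pairs, and 33 did so by Spearman's rho (median 0.774). The median over all 121500666 pairs of tested genes was 0, and 4.59% of them had an r at least as high as the members' median. When B6 mouse 8 and Line 4a mouse 1 were left out, the members' median was 0.788, with 35 pairs called, and the share of all gene pairs at or above that value was 0.348%.

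Fos and Arc were the most tightly linked pair, with r = 0.925 and rho = 0.894. The permutation p of r was 1e-05, the smallest that 100000 shuffles within genotype can give, with an adjusted p of 0.00015, and the permutation p of rho was 3e-05. Without the 2 mice farthest from the median of Fos, B6 mouse 5 and Line 4a mouse 4, r was 0.891. Within B6 it was 0.905 and within Line 4a 0.986. Arc and Dusp1 followed (r = 0.907, rho = 0.903, adjusted permutation p = 0.00015 and 0.0003), and r was 0.915 without the 2 mice farthest from the median of Arc. Egr1 and Egr2 had r = 0.901 and rho = 0.944, with adjusted permutation p of 0.00015 and 0.000225, and r = 0.854 without the 2 farthest mice. Over the 45 pairs the median r without the 2 farthest mice was 0.723, and 44 of 45 remained above 0.

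**Figure D3:**
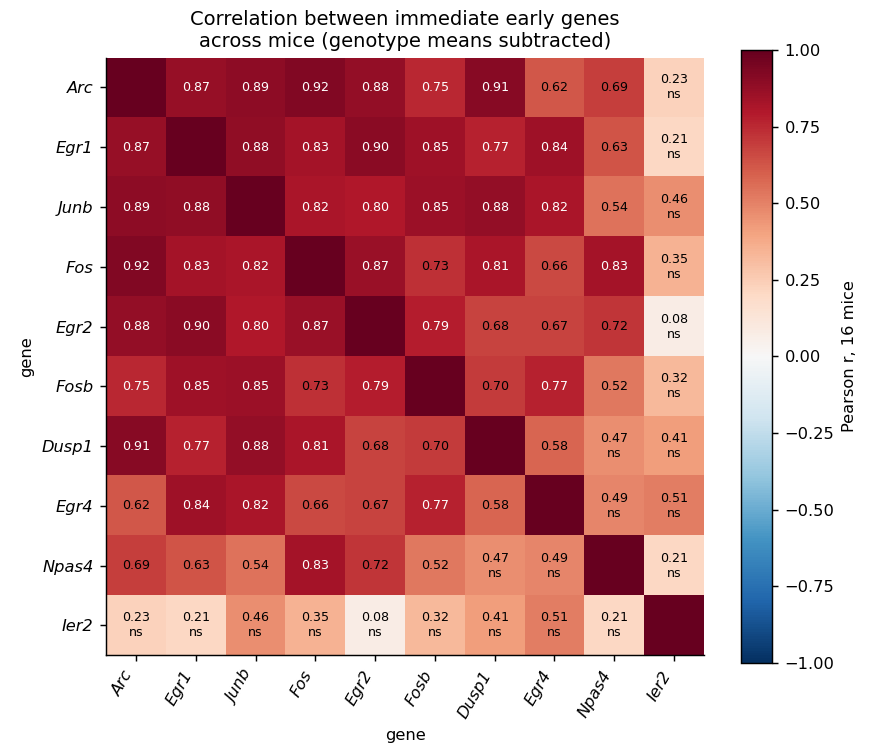
Pearson r of log2 CPM between each pair of the 10 genes over 16 mice, with genotype means subtracted, drawn as a colour scale from -1 to 1. Genes are ordered by their median r, and "ns" marks pairs with an adjusted permutation p of 0.05 or more. Arc stands first with a median r of 0.875 and Ier2 last with 0.321, and all 9 pairs of Ier2 carry the mark.

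Arc, Egr1, Junb and Fos formed the centre of the set, with median r to the other 9 genes of 0.875, 0.844, 0.820 and 0.820. Each also tracked the mean of the other 9 genes, with r between 0.910 and 0.936, given as a description. Npas4 followed Fos (r = 0.830) and was less close to Dusp1 (r = 0.468, rho = 0.474, adjusted permutation p = 0.0740 and 0.0718) and Egr4 (r = 0.491, rho = 0.477, adjusted permutation p = 0.0658 and 0.0709). B6 mouse 8 was the highest mouse for Junb at 43.8 CPM and the lowest B6 mouse for Npas4 at 12.7 CPM. Without it and Line 4a mouse 1 the r of Npas4 was 0.764 with Dusp1 and 0.698 with Egr4. Ier2 stood outside: 0 of its 9 pairs passed, with r from 0.0773 with Egr2 to 0.508 with Egr4, whereas 34 of the 36 pairs without Ier2 passed, with a median r of 0.794. Ier2 was counted at 57 to 147 reads per mouse, for which counting error alone gives a coefficient of variation of about 10%, beside a measured 16.3% in B6 and 13.1% in Line 4a.

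The covariation was present within each genotype. The median r was 0.798 in the 8 B6 mice, with 45 of 45 pairs above 0, and 0.717 in the 8 Line 4a mice, with 44 of 45 above 0. The number of pairs called within a genotype was 26 in B6 and 14 in Line 4a. Without the pair of libraries, the median was 0.870 in 7 B6 mice, with 29 pairs called, and 0.768 in 7 Line 4a mice, with 16 called. Within the lane sets the median was 0.787 for lanes 5 and 6, with 24 pairs called, and 0.575 for lanes 7 and 8, with 40 of 45 pairs above 0 and 0 called. In either lane set the 8 mice, in groups of 4 and 4, allow only 576 shuffles, so this limit was the same for both. Without the pair of libraries these medians were 0.849, with 20 pairs called, and 0.769, with 0 called. Regressing out the cortical marker score left the median at 0.776 with 34 pairs called. The r of the members' mean profile with the mean of each marker list ran from -0.46 for oligodendrocytes to 0.14 for microglia, and was 0.11 for cortical and 0.10 for striatal projection neurons, values given as a description with no test. The r of single members with reads on genes ran from -0.45 for Arc to -0.18 for Egr4, and was 0.28 for Ier2. B6 mouse 7, with 1 lane file, had the fewest reads on genes, 19032826. Without that mouse the median r was 0.700, with 32 pairs called. A part played by depth was not tested.

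Individual mice showed the pattern plainly. B6 mice 5 and 7 were among the 4 highest of all 16 mice for 9 of 10 genes each, B6 mouse 2 for 8 and B6 mouse 8 for 6. Line 4a mouse 4, the highest of its group on average, was among the 4 highest for 4. At the other end, Line 4a mouse 3 was among the 4 lowest for all 10 genes and the lowest of all for 8, and B6 mice 1 and 4 were among the 4 lowest for 7 each. These high mice belonged to both lane sets, and all but Line 4a mouse 4 were B6. The ranks were taken before genotype means were subtracted. The 3 low mice belonged to both genotypes, and all 3 were of lanes 5 and 6. Line 4a mouse 1 was mixed, with 5 genes among the 4 lowest and 1, Ier2, among the 4 highest.

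**Figure D4:**
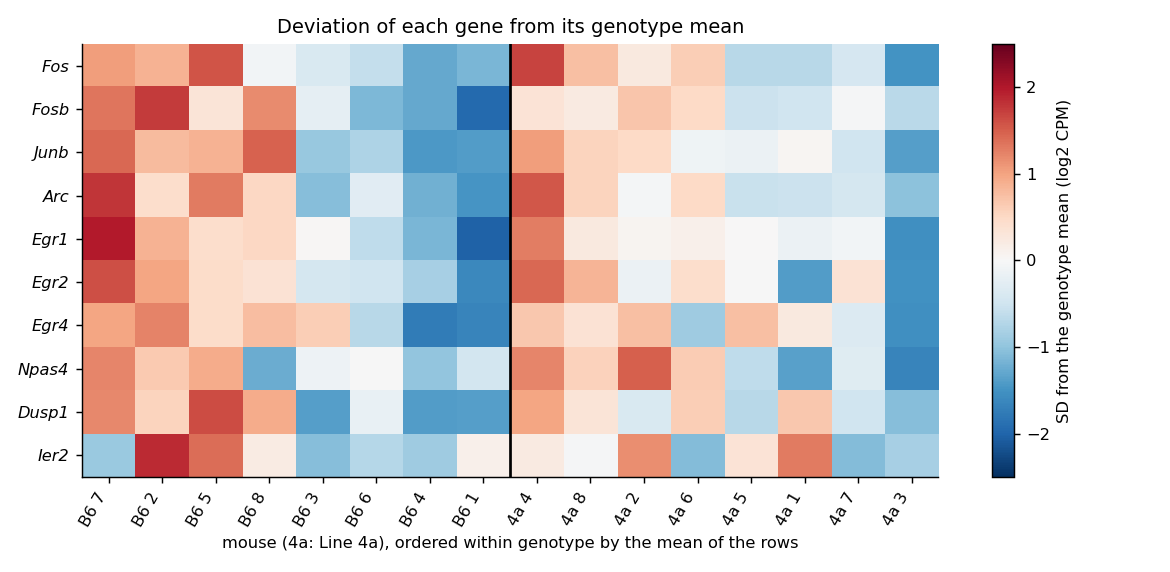
Deviation of each gene (rows) from its genotype mean in each mouse (columns), in SD of the centred log2 CPM, with B6 on the left and Line 4a on the right. Mice are ordered within genotype by the mean of the 10 rows. Columns are mostly of a single colour, from B6 7 and Line 4a 4 (red) to B6 1 and Line 4a 3 (blue), and the Ier2 row departs from the others.

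The members were also among the most variable genes of their level. The SD of log2 CPM within genotype was 0.755 for Egr2, 0.722 for Fos, 0.664 for Npas4, 0.550 for Arc, 0.465 for Junb and 0.361 for Egr4. Set against the 500 genes nearest in mean level, Arc exceeded all 500, and Npas4, Egr2 and Fos exceeded 99, 98.8 and 98 percent of them. Junb and Egr1 exceeded 96.6 percent, Egr4 94, Dusp1 88.6 and Fosb 85.2, while Ier2 (SD 0.207) exceeded 29.4. For Arc the median SD of the 500 neighbours was 0.121, and for Egr1, whose SD was 0.296, it was 0.129. For Arc, counting error alone amounts to a coefficient of variation of 2.18% in the median mouse, against a measured 44.7% in B6 and 33.7% in Line 4a. The SD was larger in B6 than in Line 4a for 9 of 10 genes, most clearly for Fosb at 0.428 and 0.163. Npas4 was the exception, at 0.568 in B6 and 0.748 in Line 4a. The difference in spread between the genotypes was not tested.

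**Figure D5:**
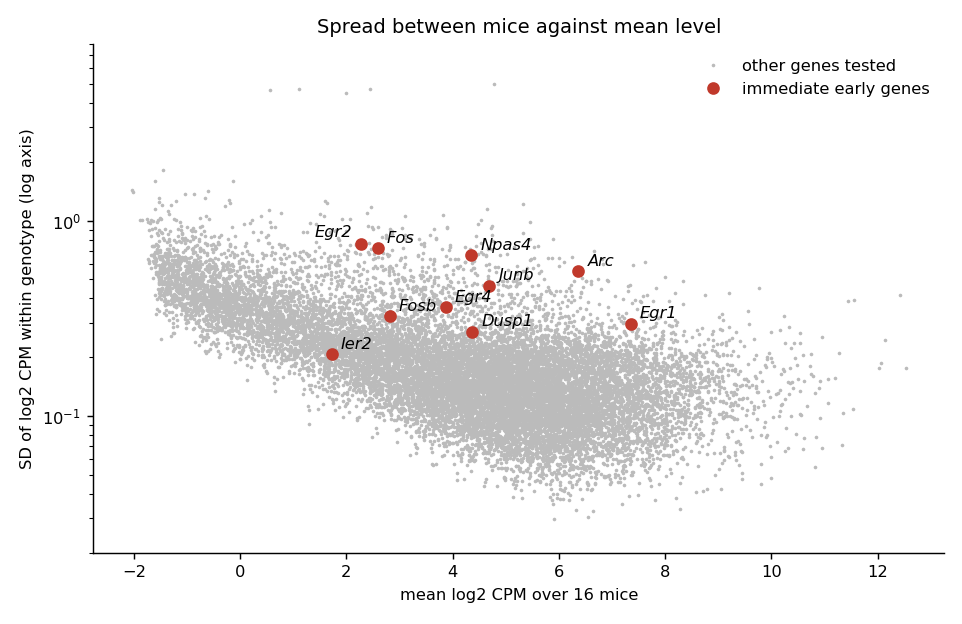
SD of log2 CPM within genotype (log axis) against mean log2 CPM over 16 mice, with the 10 genes in red and all genes tested in grey. Arc (SD 0.550), Npas4, Fos and Egr2 lie in the upper part of the cloud, and Ier2 lies within it.

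Other genes of the same signalling pathways were examined in 7 lists holding 77 tested genes, of which 15 were lower and 3 higher in Line 4a at an unadjusted p under 0.05 and 0 passed FDR 20%. Over all genes, 5.14% were lower and 4.86% higher at that threshold. The lists were chosen with earlier results of these data known, so these shares are a description and not an independent test. By DESeq2, 8 of the 77 passed FDR 20%, which 1.67% of all genes did. By the edgeR likelihood ratio test 6 of the 77 did, as did 186 of all 15589 genes. Among 19 other primary-response transcription factors, 5 were lower and 0 higher, with a median log2 fold change of -0.09. They were Nr4a2 (50.1 ± 10.03 CPM in B6 and 36.8 ± 7.73 in Line 4a, log2 fold change -0.45, SE 0.14), a nuclear receptor that in midbrain is needed for dopamine neurons, its relative Nr4a3 (-0.56, SE 0.24), Fosl2 (-0.46, SE 0.19), Klf10 (-0.22, SE 0.08) and Klf6 (-0.13, SE 0.05). Among 22 activity-regulated effectors, 7 were lower and 0 higher, with a median of -0.10. Bdnf, a neurotrophin whose protein reaches striatum mainly along cortical axons, was at 10.7 ± 3.31 CPM in B6 and 6.59 ± 0.927 CPM in Line 4a (-0.71, SE 0.15, unadjusted p 0.000161, adjusted p 0.292 by edgeR). Pcsk1, a prohormone convertase (-0.47, SE 0.10), Nrn1 (-0.77, SE 0.22), Nptx2 (-0.34, SE 0.09), Ptgs2 (-0.48, SE 0.16), Homer1 (-0.24, SE 0.09) and Vgf (-0.13, SE 0.05) were the others. With the cortical score as a covariate, 2 of the 77 genes were lower and 0 higher at the same threshold, at which 0.770% of all genes were lower.

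Among 8 feedback inhibitors, 2 were lower and 0 higher: Dusp6, a cytoplasmic ERK phosphatase (-0.26, SE 0.09), and Dusp14 (-0.36, SE 0.12). Upstream regulators made up the other 4 lists. Of 6 genes for SRF and its cofactors, 0 passed the unadjusted threshold, and Elk3 (0.11, SE 0.06) and Mkl1 (0.08, SE 0.04) had the smallest p-values. Of 8 genes for CREB and its coactivators, Crtc2 (0.18, SE 0.07) and Atf1 (0.14, SE 0.06) were higher and 0 lower. Mef2c was lower among 3 MEF2 factors (-0.36, SE 0.10), and the next smallest p belonged to Mef2a (-0.18, SE 0.18, p 0.348). Of 11 ERK cascade kinases, Rps6ka1 was higher (0.16, SE 0.07) and 0 were lower, and Braf was next (-0.08, SE 0.05, p 0.111). Within the lane sets, 4 of the 77 genes were lower and 2 higher in the mice of lanes 5 and 6, where 1.56% of all genes were lower and 1.64% higher. In the mice of lanes 7 and 8, 21 were lower and 2 higher, against 4.66% and 4.35% of all genes.

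The genes whose levels across mice were most like the members' mean profile were then ranked among 14197 other genes with a mean of at least 1 CPM. The profile was the mean of the standardized, genotype-centred log2 CPM of the 10 genes, and r over the 16 mice is given as a description with no p. Nr4a1, an orphan nuclear receptor and classical immediate early gene, was the closest (r = 0.941, 0.954 within B6 and 0.910 within Line 4a). Its mean was 48.1 CPM and its SD of log2 CPM 0.632, and its log2 fold change of -0.51 (p 0.0776) was close in size to that of Fos. The next were Zfp418 (0.860), Arl4d (0.850), Dusp6 (0.829), Klf10 (0.803), Tiparp (0.784), Btg2 (0.778), Zfp35 (0.774), Rgs2 (0.767) and Stk40 (0.763). Of these 10, 6 (Nr4a1, Arl4d, Dusp6, Klf10, Btg2 and Rgs2) were in the pathway lists. Zfp418 and Zfp35, which were not, were close within B6 (0.968 and 0.894) and less so within Line 4a (0.564 and 0.495), and the SD of Zfp35 was only 0.080. In all, 171 genes, or 1.20%, had an r over 0.5.

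The pathway lists are described by the same measure, and differences between lists were not tested. An r over 0.5 was found for 5 of 19 other primary-response transcription factors, 8 of 22 effectors and 4 of 8 feedback inhibitors, among them Dusp6, Dusp14 (0.748), Nab2 (0.695), an inhibitor of EGR proteins, and Spry2 (0.635). Srf, itself an immediate early gene, was at 0.615. The CREB, MEF2 and ERK kinase lists held 0 genes over 0.5, with median r of 0.05, 0.10 and 0.20. Some genes of the pathway lists ran the other way. Jun, the main AP-1 partner of Fos, had r = -0.53, and Zfp36, an effector which destabilizes short-lived transcripts, had r = -0.38. Jun varied little between mice, at 34.3 ± 2.57 CPM in B6 and 32.8 ± 1.45 CPM in Line 4a (SD). None of the genes in the cell type marker lists had an r over 0.5. The 6 oligodendrocyte markers were all negative, from -0.47 to -0.35. Single members reached -0.62 (Fosb with the oligodendrocyte mean) and 0.51 (Ier2 with the cortical mean). These values were not tested.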

How the data were processed

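Striatal RNA-seq (mRNA libraries, single-end reads) from 8 B6 and 8 Line 4a mice was used. The authors aligned reads to mm10 with TopHat and deposited whole-number read counts per gene and lane from HTSeq (version 0.6.1p1 in the submitters' processing notes), counted over exons without strand. The deposited lane counts were summed per mouse. For B6 mouse 7 a single lane file was used, and its other lane was not analysed here. Rows of reads not assigned to a gene were left out of totals. The authors' comparison tables hold fold changes and p-values and were not used.

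Genes passing filterByExpr were tested with the edgeR 4.0.16 quasi-likelihood test (TMM, Benjamini-Hochberg adjustment over all genes tested). DESeq2 1.42.0 and other settings were alternatives. The study modelled home cage, which the labels do not give. CPM are TMM-scaled. A prior count of 0.5 was added before taking log2. Correlations used 100000 shuffles of mice within genotype, two-sided. Scripts were tested on simulated data. Genes were named by a fixed rule: the 10 members, pathway genes at an unadjusted p under 0.05 (or the 2 smallest p), and the 10 genes most like the members. Nab2, Spry2, Srf, Jun and Zfp36 were named after their values were seen. The members and lists were chosen with earlier results of these data known.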

Additional observations from a re-analysis of the deposited data

Results flagged for a closer look

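The genotype effect on 2 of the 10 genes differed between the mice of lanes 5 and 6 and those of lanes 7 and 8 by a test of the interaction at an unadjusted p under 0.05. For Arc the log2 fold change of Line 4a over B6 was lower in lanes 7 and 8, with an interaction of -0.93 (p = 0.0399, adjusted p = 0.950 by edgeR). It was 0.10 (SE 0.31) in lanes 5 and 6 and -0.84 (SE 0.22) in lanes 7 and 8. For Dusp1 the interaction was -0.50 (p = 0.0245, adjusted p = 0.950 by edgeR), from 0.13 (SE 0.16) to -0.38 (SE 0.11). Without the pair of libraries with few reads outside genes, the interaction was -1.11 (p = 0.0218) for Arc and -0.45 (p = 0.0517) for Dusp1, which was then no longer under 0.05, with an adjusted p of 0.999 for both (edgeR). Neither passes correction over all genes, and what the mice of a lane set share besides sequencing was not tested. In the 20 groups of 8 mice, 0 of the 10 genes had a mouse set apart from its group by Dixon's criterion, which chance would meet in about 1 in 20 groups.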

How the results depend on the processing

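No member passed FDR 20% under any of the 31 alternatives. Of 310 fold changes, 11 reversed. In lanes 5 and 6 alone Junb was at 0.14, Arc at 0.10, Npas4 at 0.11 and Dusp1 at 0.13, there without Line 4a mouse 1 Fos was at 0.012, Junb at 0.16, Arc at 0.21, Npas4 at 0.35 and Dusp1 at 0.075, and with the cortical marker score as a covariate Npas4 was at 0.055 and Ier2 at 0.10, none at p under 0.05. The count at an unadjusted p under 0.05, 2 of 10, was 1 with upper-quartile normalization, 0 in lanes 5 and 6 alone, 8 in lanes 7 and 8 alone, 0 with the cortical marker score and 0 without the pair of libraries with few reads outside genes, an alternative chosen after seeing the data. Without this pair it stayed at 0 in lanes 5 and 6 and at 8 in lanes 7 and 8. Leaving out each mouse gave 0 to 5: it was 0 without B6 mouse 2, 3, 5, 7 or 8 or Line 4a mouse 3, 6 or 7, and 5 without B6 mouse 1 or 4 or Line 4a mouse 4. The cause was not tested. Egr4 passed in 8 and Egr1 in 4 of these 16 fits.

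Median r of 0.730 was 0.575 in lanes 7 and 8 alone. Called pairs, 34, were 0 in lanes 7 and 8 alone and 14 in B6.D2 congenic mice only, both with 8 mice. Without the pair of libraries the median was 0.870 in B6 mice only and 0.849 in lanes 5 and 6, and called pairs were 16 in B6.D2 congenic mice only, 20 in lanes 5 and 6 and 0 in lanes 7 and 8. Leaving out each mouse gave a median r of 0.700 to 0.779 and 29 to 35 pairs. With the replicate block, 1 member, Egr2 (p 0.0405, from 0.0710 without the block), reached an unadjusted p under 0.05, Egr1 (p 0.0755) and Egr4 (p 0.0590) no longer did (edgeR), and the median r was 0.779 with 39 pairs. Same-numbered mice deviated together with r from -0.12 to 0.36, over 0.1 in 3 of 8 pairs, and 3 of 16 were closest to the mouse of their own number. Whether same-numbered mice shared a litter or a cage is not in the labels and was not tested. Pathway genes lower at an unadjusted p under 0.05, 15, were 2 with the cortical marker score, 4 in lanes 5 and 6 and 21 in lanes 7 and 8. Those higher, 3, were 0 with the cortical marker score, and 2, 2 and 6 in lanes 5 and 6, lanes 7 and 8 and without the pair of libraries. The lane alternatives for pathway genes were added after seeing the data. The edgeR likelihood ratio test and RLE normalization changed neither count. The likelihood ratio test did pass 6 of the 77 pathway genes at FDR 20%, against 0 in the main fit. Depth limits Ier2 and Egr2, whose lowest counts were 57 and 45 reads.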
